A study of Danio rerio with 57 samples.

Results

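The 124 windows of 1 Mb described here were the interior stretches of the zebrafish genome with the least H3K9me3 at 4 h post fertilisation (hpf). Chromosomes 1 to 25 were divided into full 1 Mb windows. Windows touching the outer 1 Mb of a chromosome or lying on chromosome 4 beyond 28 Mb were left out, which gave 1237 interior windows. The 10% with the lowest covered share in the 4 hpf list were chosen by that value and are called the low windows. They held 4894 of the 190029 regions in 6 lists of H3K9me3 regions, each region being assigned by its midpoint. In order of time (2, 2.5, 3, 3.5, 4 and 4.5 hpf) these were 154, 379, 740, 1165, 1483 and 973 regions. The 4 hpf values chose the windows and are given as a description. The remaining 1113 interior windows are the comparison, and 124 of these, the most covered 10% at 4 hpf, mark the other end of the range.

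The regions came from CUT&RUN on whole embryos of the AB strain, in which an antibody to H3K9me3 guides a nuclease to release the DNA around marked nucleosomes. Per the labels, the time course had 2 H3K9me3 libraries at 2 hpf and 3 at every later time, all made with an Abcam antibody, beside 10 libraries with control IgG. Each time has 1 deposited list. Its source libraries are not stated and were taken to be the time course. A list is therefore 1 pooled measurement with no spread between embryos, so no p-value is given for any difference. Read depth is unknown, and list length and depth cannot be told apart. In the 4.5 hpf list, chromosomes 1 and 10 to 14 stand apart. The low windows on chromosomes 1 and 10 to 13 averaged 1.62% covered there and 1.33% at 4 hpf, and those on chromosome 14 averaged 0 and 0.983%. Many summaries that use the 4.5 hpf list are therefore also given on the 19 other chromosomes, which hold 103 low windows and 844 others. The rest use all 25 chromosomes.

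H3K9me3 is trimethylation of lysine 9 of histone H3. It is written by methyltransferases of the SUV39H and SETDB1 families and bound by HP1 proteins, which compact the chromatin and can recruit more methyltransferase, so that the mark can spread from where it was first set. It is known for silencing transposons and satellite repeats. In zebrafish it is scarce in cleavage embryos and is built up around zygotic genome activation. The gene and repeat content of the low windows was not analysed here, because the sources used here do not give the genome build of the lists. Windows and regions are named by position, counted from 1.

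The low windows were poor in H3K9me3 in every list, including the 5 that were not used to choose them. In order of time their mean covered share was 0.0783, 0.212, 0.516, 0.893, 1.21 and 1.17%. In the other interior windows it was 0.472, 1.64, 3.28, 5.22, 6.55 and 6.34%. The ratio of low to other windows was thus between 0.130, at 2.5 hpf, and 0.184, at both 4 and 4.5 hpf. On the 19 chromosomes the 4.5 hpf means were 1.12% in the low windows and 6.14% in the others, a ratio of 0.182. The most covered windows carried 26.3 times the share of the low windows at 2.5 hpf and 14.8 times at 4.5 hpf. All these lists were read on 1 genome, and stretches that reads cannot be placed in would be empty in each of them, which was not tested.

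Single windows lay on the same side. In the lists of 2.5, 3, 3.5 and 4.5 hpf all 124 low windows were below the median of the other interior windows, where 55.0% of all interior windows lay. Those medians were 1.02, 2.21, 3.85 and 4.71%. In the 2 hpf list 121 of the 124 were below the other windows' median of 0.282%, where 54.7% of all interior windows lay. The ranges still overlapped. At 3.5 hpf the low windows ran from 0.130% to 1.59% with a median of 0.877%, and the other windows from 0.466% to 30.4%. At 4.5 hpf the low windows ran from 0 to 2.40% with a median of 1.14%, and the other windows from 0 to 32.9%. On the 19 chromosomes these ranges were 0.215% to 2.17% and 0.303% to 30.3%. Windows with no covered base numbered 37, 7, 1, 0, 0 and 3 of the 124 low windows in order of time, and 46, 2, 0, 0, 0 and 28 of the 1113 others. The 31 empty windows of the last list all lay on the chromosomes that stand apart.

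**Figure D1:**
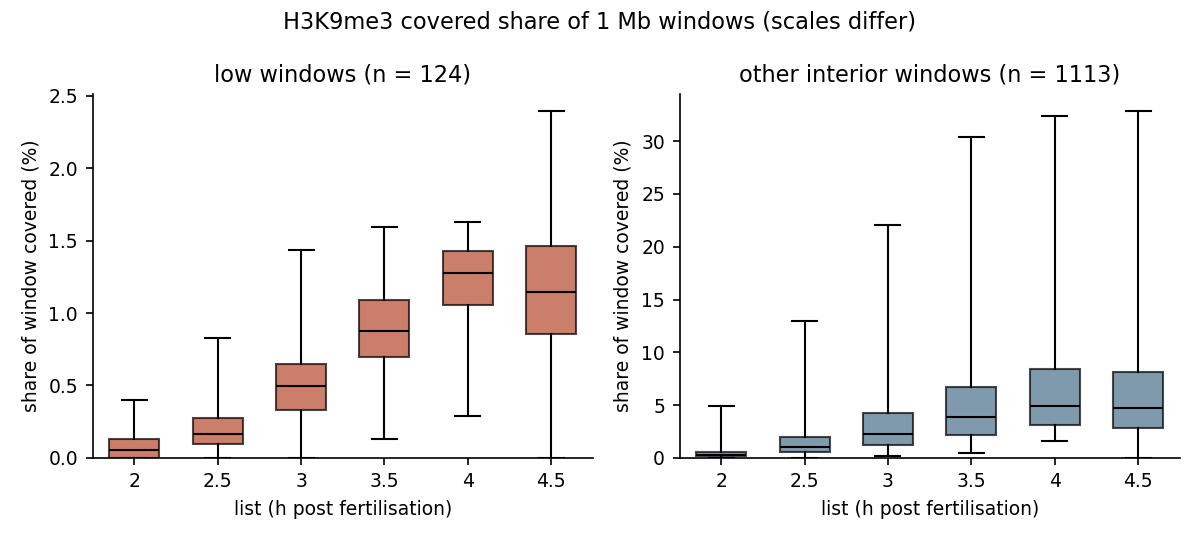
Share of each 1 Mb window covered by H3K9me3 regions (percent, vertical axes, on different scales) in the 6 lists (horizontal axes), for the 124 low windows on the left and the 1113 other interior windows on the right. Boxes span the quartiles with the median as a line, and whiskers reach the lowest and highest window. The 4.5 hpf median was 1.14% in the low windows and 4.71% in the others.

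Membership of the lowest 10% was shared most fully with the list next before 4 hpf. Of the low windows, 47 were also among the lowest 10% in the 2 hpf list, or 37.9%, where 10% of all interior windows are by construction. The 2.5 hpf list shared 73 of them (58.9%), the 3 hpf list 82 (66.1%) and the 3.5 hpf list 100 (80.6%). The 4.5 hpf list shared 88 (71.0%), or 78 of 103 (75.7%) counting low windows of the 19 chromosomes alone. For both values the 4.5 hpf set was drawn from all chromosomes. It includes 31 windows at 0 on the chromosomes that stand apart, which limits how many low windows it can share. The 4.5 hpf shares are therefore not directly comparable with the earlier ones. Exact 95% binomial intervals, which cover counting error only, were 29.3% to 47.1% for the first of these shares and 72.6% to 87.2% for the 3.5 hpf share. Neighbouring windows are not independent and each lowest set has a fixed size, so these intervals are only a rough guide. Within the lowest 20% of a list, the numbers were 75, 102, 114 and 124 of 124 for the 4 lists before 4 hpf, and 116 for the list after. Here 20% of all interior windows are in the set by construction. From 2.5 hpf on no low window lay above the median of all interior windows, and 5 did at 2 hpf. All 6 lists had 22 of the windows in their lowest 10%. Another 40 windows were there in 5 lists, 24 in 4, 14 in 3 and 20 in 2. Only the 4 hpf list had the remaining 4 there. Each count includes the 4 hpf list, where all 124 are in the set by the rule. The 22 are thus also the number in all 6 lists among all 1237 interior windows. The 4.5 hpf set used here again includes the windows at 0.

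Ranks were alike over the whole interior and less so inside the low windows. Across the 1237 interior windows the rank correlation with the 4 hpf share was 0.772, 0.899, 0.945 and 0.984 for the 4 earlier lists in order of time and 0.930 for the 4.5 hpf list. Inside the narrow range of the 124 low windows it was 0.132, 0.349, 0.428 and 0.736, and 0.663 for the 4.5 hpf list. The 4.5 hpf values on the 19 chromosomes were 0.981 over the interior and 0.649 inside the low windows. The points share the genome, its mappability and, within a list, the libraries.

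Low windows lay deep inside the chromosomes. Their centres were 9.50 Mb to 36.8 Mb from the nearer chromosome end, with a median of 21.5 Mb. The other interior windows had a median of 12.5 Mb and reached to 35.8 Mb, and the most covered windows had a median of 6.50 Mb. None of the 189 windows centred within 5 Mb of an end was a low window. Low windows were 3 of 245 (1.22%) at 5 to 10 Mb, 14 of 245 (5.71%) at 10 to 15 Mb, 31 of 242 (12.8%) at 15 to 20 Mb, 45 of 194 (23.2%) at 20 to 25 Mb and 31 of 122 (25.4%) further in. Counted from the first base, they lay between 12.2% and 80.1% of chromosome length, with quartiles of 40.6% and 62.6%.

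At 4 hpf coverage was lower toward the middle in general. It averaged 10.9% in the windows within 5 Mb of an end and 3.63% in those over 25 Mb from one. Without the low windows the latter was 4.49%. At 2 hpf the fall was not steady. Windows outside the low set averaged 0.647% within 5 Mb of an end and 0.359% at 5 to 10 Mb. They averaged 0.573% at 10 to 15 Mb and 0.376% over 25 Mb from one. Among the 803 windows centred over 10 Mb from an end, of which 121 were low, the low windows had 0.171, 0.147, 0.191 and 0.207 times the covered share of the others in the 4 lists before 4 hpf, and 0.218 times at 4.5 hpf. The contrast was thus also present when only these deeper windows were compared. The part of position in it was not tested.

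**Figure D2:**
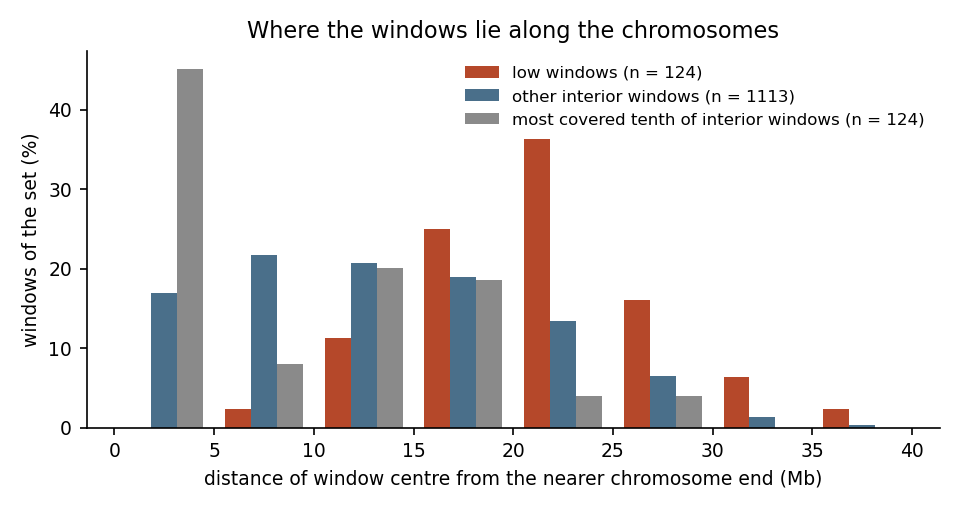
Percent of the windows of each set (vertical axis) by distance of the window centre from the nearer chromosome end in Mb, in classes of 5 Mb (horizontal axis), for the low windows, the other interior windows and the most covered 10%, which is part of the others. Low windows are absent below 5 Mb and have their median at 21.5 Mb, against 12.5 Mb in the other windows.

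Every chromosome except 25 had at least 1 low window, but the numbers were uneven. Chromosome 4 before 28 Mb had 11 among 27 interior windows, or 40.7%. Chromosome 20 had 11 of 53 (20.8%), chromosome 17 had 10 of 51 (19.6%) and chromosome 7 had 13 of 72 (18.1%). At the other end, chromosomes 19, 22 and 24 had 1 low window each, among 46, 37 and 40. On chromosome 4 the 11 low windows averaged 0.137, 0.277, 0.523, 0.979, 1.21 and 1.04% in order of time, against 0.305, 1.18, 1.97, 3.54, 4.35 and 4.19% in the 16 other windows before 28 Mb. The rest of that chromosome was outside the rule.

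The low windows were partly contiguous. They formed 85 separate stretches: 59 single windows, 16 pairs, 8 runs of 3, 1 run of 4 and 1 run of 5. In all, 65 of the 124 low windows (52.4%) had a low neighbour, against 149 of the 1113 other interior windows. Low windows also lay toward the middle of chromosomes, and the part of position in this was not tested. The longest run was chromosome 4, 9000001 to 14000000, covered over 0.180, 0.341, 0.492, 1.07, 1.33 and 1.28% in order of time, by 11, 20, 26, 49, 58 and 39 regions. Chromosome 9, 31000001 to 35000000, was next, with 0.0354, 0.152, 0.466, 0.760, 1.14 and 1.26% from 2, 6, 20, 27, 40 and 29 regions. It had the least coverage at 2 hpf of the 10 runs of at least 3 windows.

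The 8 runs of 3 windows are equal in length, and the first 3 in chromosome order are given. Chromosome 2, 34000001 to 37000000, had 0.0554, 0.212, 0.481, 0.681, 1.28 and 0.963% in order of time. A second run on chromosome 4, 22000001 to 25000000, had 0.0919, 0.243, 0.618, 1.08, 1.35 and 0.859%. Chromosome 7, 29000001 to 32000000, had 0.0901, 0.229, 0.464, 0.571, 0.917 and 0.768%. All 3 were lower at 4.5 than at 4 hpf, but the run of 3 at chromosome 20, 32000001 to 35000000, was higher, with 1.38% against 1.12%. Of the 10 runs of at least 3 windows, that one and the run on chromosome 9 were higher at 4.5 hpf and the other 8 lower. Next to the low windows the mark was intermediate. The 149 windows that border a low window without being one averaged 3.12% at 4 hpf, against 7.08% in the 964 remaining windows, and in the 2 hpf list 0.201% against 0.513%. That they exceed the low windows at 4 hpf is set by the choice. All windows outside the low set averaged 4.34% at 4 hpf and 0.341% at 2 hpf when 20 to 25 Mb from an end. Further in, these averages were 4.49% and 0.376%. The part of position in this contrast was not tested.

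The least covered window of all was chromosome 7, 34000001 to 35000000. It held 0, 0, 1, 2, 1 and 1 regions in order of time, over 0, 0, 0.0284, 0.130, 0.286 and 0.291% of its length. The 6 lists together covered 0.292%, so nearly all the marked bases of the earlier lists lay inside the 4.5 hpf region. Long empty stretches lay on both sides: 628 kb without a region in any list, chromosome 7, 33912357 to 34540506, and 457 kb, 34543432 to 35000000, where the window ends. They were the longest and the third longest such stretches in the low windows, the other being 589.8 kb at chromosome 14, 32592481 to 33182296.

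The window ranked second, chromosome 4, 20000001 to 21000000, had another history. It had 0.169, 0.0895, 0.125, 0.339, 0.312 and 0.336% in order of time, so it was already marked in the first list. Together the lists covered 0.784% of it, more than any of them did alone, so that they marked partly different places. Chromosome 14, 32000001 to 33000000, ranked next, had 0.0971, 0.0864, 0.322, 0.453 and 0.463% in the first 5 lists and lies on a chromosome that stands apart in the last, where it had 0.

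The other 7 of the 10 least covered windows differed in when they were first marked. Chromosome 9, 34000001 to 35000000, and chromosome 16, 30000001 to 31000000, had no region in the first pair of lists, then 0.375% and 0.203% at 3 hpf and 0.562% and 0.587% at 4 hpf. Chromosome 7, 36000001 to 37000000, was empty in the 2 hpf list alone and had 0.596% at 4 hpf. Chromosome 3, 23000001 to 24000000, had its highest share, 0.651%, at 3 hpf, and 0.304% at 4.5 hpf. On chromosome 7, the window 27000001 to 28000000 had 0.479% at 4 hpf and 0.215% at 4.5 hpf. Chromosome 17, 27000001 to 28000000, had 0.647% and 0.492% in those lists, and chromosome 21, 28000001 to 29000000, had 0.638% and 0.916%. Of the 10, chromosome 21 had the largest increase in the last step, 0.278 percentage points. Around the threshold the values were continuous: the last 3 windows inside it had 1.63% each at 4 hpf and the first 3 outside 1.64% each.

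The low windows had fewer regions and narrower ones. Covered share depends on both, so the 4 hpf values of number and width come partly with the choice and are a description. In order of time they held 1.24, 3.06, 5.97, 9.40, 12 and 7.85 regions per Mb, against 5.35, 15, 23.2, 31.3, 36.8 and 23.9 in the other interior windows. Median width was 500, 500, 642, 659, 736 and 1056 bp in the low windows and 634, 661, 827, 967, 1026 and 1679 bp in the others. The number ratio of low to other windows was 0.232 at 2 hpf and 0.328 at 4.5 hpf, and the width ratio 0.789 and 0.629. The ratios for 4.5 hpf on the 19 chromosomes were 0.315 for number and 0.648 for width. Number and width thus moved in opposite ways between the first and last lists, number drawing closer and width further apart. On a log scale, region number made up 81.3% of the gap in summed region length per Mb in the first list and 65.8% in the last (67.9% on the 19 chromosomes), the remainder being mean width.

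**Figure D3:**
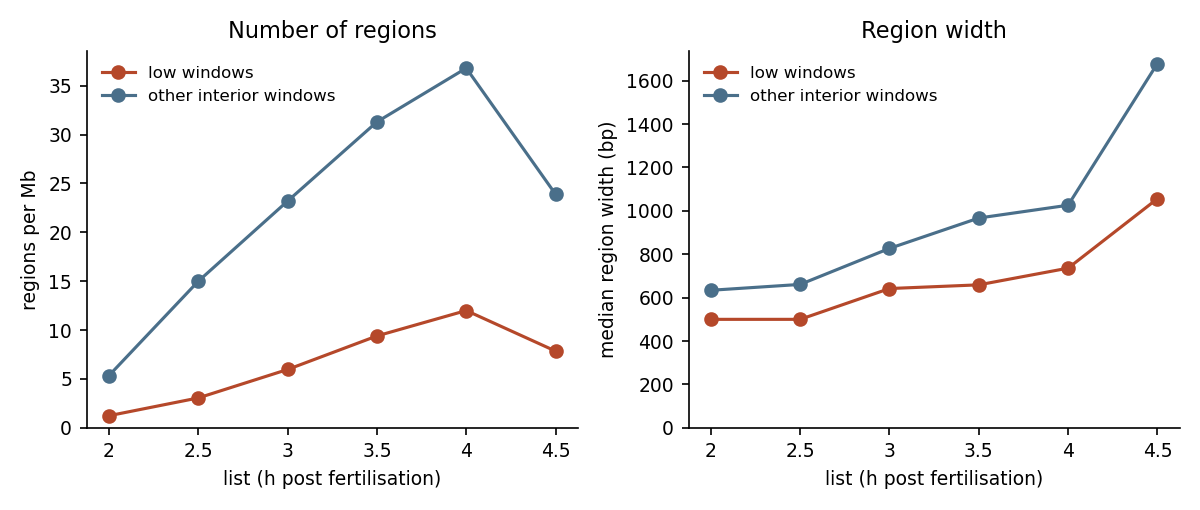
Regions per Mb on the left and median region width in bp on the right (vertical axes, from 0) in the 6 lists (horizontal axes), for the low windows and the other interior windows. At 4.5 hpf the low windows had 7.85 regions per Mb and a median width of 1056 bp, against 23.9 per Mb and 1679 bp in the others.

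Wide regions were scarce in the low windows. At 4 hpf a low window was covered over at most 1.63%, which itself limits how wide a region inside it can be. Regions of at least 5 kb numbered 0, 1, 3, 9, 11 and 26 in order of time, against 17, 284, 971, 2004, 2816 and 3468 in the other windows. As a share of regions this was 0, 0.264, 0.405, 0.773, 0.742 and 2.67% in the low windows. In the others it was 0.286, 1.70, 3.76, 5.75, 6.88 and 13%. The 0 at 2 hpf rests on 154 regions and such regions were rare in both sets then. On the 19 chromosomes the 4.5 hpf shares were 1.99% in the low windows and 11.8% in the others. Regions of at least 1 kb were 10.4% of the total in the low windows and 25% in the others at 2 hpf, and 53.8% and 72.1% at 4.5 hpf (52.9% and 71.7% on the 19 chromosomes). A width of exactly 500 bp was the most frequent single width of both sets in every list, held at 2 hpf by 16.2% of regions in the low windows and 16.1% in the others. The widest region measured 11144 bp in the low windows and 101195 bp in the other interior windows, both at 4.5 hpf, and 9042 bp and 53084 bp on the 19 chromosomes in that list.

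Fewer regions of the low windows carried a name beginning with primary, a class that no header explains; all others are named secondary. In order of time the share was 11, 7.92, 10.4, 16.7, 19.9 and 9.76% in the low windows and 32.5, 18.0, 21.0, 28.8, 31.0 and 14.1% in the others. At 4.5 hpf on the 19 chromosomes it was 7.08% and 12.3%, low windows before others. The deposited signal, whose unit is not given, was compared within each list alone. Its median in the low windows was 0.654, 0.664, 0.646, 0.594, 0.621 and 0.538 times that in the other windows, and 0.587 times at 4.5 hpf on the 19 chromosomes.

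The widest regions of the low windows at 2 hpf show lasting and passing places. The widest was chromosome 4, 11418067 to 11420778, of 2712 bp, inside the longest run. Regions lying over it measured 5032, 7322, 7414, 8714 and 9042 bp in the later lists in order of time. The second, chromosome 17, 23361212 to 23363797, of 2586 bp, was overlaid by 2690 bp at 2.5 hpf and by nothing afterwards. Chromosome 17, 21874292 to 21876098, of 1807 bp, was overlaid by 3273, 5418, 6224, 6301 and 7704 bp. Chromosome 13, 17614746 to 17616443, of 1698 bp, and chromosome 17, 25608334 to 25610004, of 1671 bp, were overlaid by 5032 bp and 4685 bp at 4.5 hpf. All 5 were named primary, and 4 of them were covered in every later list.

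At 4 hpf the widest regions had different histories. The widest, chromosome 13, 33345972 to 33354934, of 8963 bp, was covered over 9.75, 16.8, 55.2 and 87.0% in the earlier lists in order of time. Chromosome 20, 27408605 to 27415053, of 6449 bp, had 12.1, 29.9, 75.7 and 93.6%. Chromosome 10, 20005734 to 20012319, of 6586 bp, had 0, 0, 9.91 and 81.7%. The first of these grew around a place marked at 2 hpf, while the one on chromosome 10 was not listed before 3 hpf. The other members of the widest 5 were the places on chromosomes 4 and 17 already described, now 11414351 to 11423064, of 8714 bp, and 21872001 to 21878301, of 6301 bp.

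Of the 5 widest regions at 4.5 hpf, 3 continued such places. Chromosome 13, 33345174 to 33356317, measured 11144 bp. On chromosome 4, 11414249 to 11423290 measured 9042 bp, and on chromosome 17, 21870656 to 21878359 measured 7704 bp. The other pair stood where little had been listed: chromosome 7, 48838594 to 48846094, of 7501 bp, had 0 in the first 4 lists and 6.49% at 4 hpf, and chromosome 20, 32956468 to 32963723, of 7256 bp, had 0 in the first 4 and 12.3% at 4 hpf. The 10 regions of both lists were named secondary. Because they were picked for width in 1 list, part of the lower coverage elsewhere comes with the choice.

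Regions in the low windows were found again in the next list less often than regions in the other interior windows. The step into 4 hpf is a description, since it asks for coverage in the list by which the windows were chosen, and the last step starts from regions of that list. Of the 154 regions at 2 hpf, 51 had at least 1 bp covered at 2.5 hpf, or 33.1% (exact 95% binomial interval 25.8% to 41.1%), against 60.3% in the other windows and 59.6% over the whole interior. In the step between 2.5 and 3 hpf the share was 58.8% (53.7% to 63.8%) in the low windows and 68.1% in the others, with 67.9% over the interior. The next step gave 63.4% (59.8% to 66.9%) in the low windows and 75.4% in the others, with 75.1% over the interior. The step into 4 hpf gave 76.2% (73.7% to 78.6%) and 83.7%, low windows before others, with 83.4% over the interior. The last step gave 53.0% (50.4% to 55.6%) and 58.9%, with 58.7% over the interior, and on the 19 chromosomes 53.5% and 60.0%. Neighbouring regions are not independent, so the intervals are too narrow. Later lists also cover less of the low windows, 0.212% against 1.64% at 2.5 hpf, and the part of this in the difference was not tested.

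Persistence moved with width, and how the later list was filtered changed the comparison. Among regions of at least 1 kb, set against all regions of the next list, it was 87.5, 92.5, 87.2, 98.5 and 81.5% over the 5 steps in the low windows and 87.4, 91.4, 92.8, 96.0 and 79.3% in the others. The low windows were thus lower in 1 of the 5 steps, and the first value rests on 16 regions. When the next list was held to regions of at least 1 kb as well, it was 62.5, 77.5, 70.9, 85.2 and 74.5% in the low windows and 77.6, 86.8, 87.1, 90.5 and 75.5% in the others, lower in the low windows at all 5. Among regions under 1 kb, set against all regions of the next list, it was 26.8, 54.9, 55.8, 67.7 and 40.8% in the low windows and 51.3, 57.6, 63.1, 71.9 and 37.5% in the others. In the last step the 19 chromosomes gave 82.7% and 81.5% for the wider regions and 41.0% and 37.2% for the narrower, low windows before others. For regions under 1 kb the widest gap was in the first step, where the number of libraries also differs, 2 at 2 hpf and 3 afterwards. The split by width was chosen after seeing the data. In both sets, regions found again were wider: in the step into 4 hpf their median width was 782 bp in the low windows and 1154 bp in the others, against 500 bp in both sets for regions not found again.

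With other classes of region the low windows were not lower at every step. With regions named primary alone in both lists, persistence was 58.8, 83.3, 64.9, 86.2 and 25.4% over the 5 steps in the low windows and 58.7, 77.5, 62.7, 73.8 and 25.1% in the others. The first and last steps were nearly equal, and the low windows were higher in the steps between. Their values rest on 17, 30, 77, 195 and 295 regions. With the best scored 50% of each list, the low windows had 62.2% and the others 70.3% in the first step. The following 4 steps gave 77.1, 71.3, 85.0 and 52.9% in the low windows and 76.7, 70.8, 78.1 and 52.0% in the others.

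**Figure D4:**
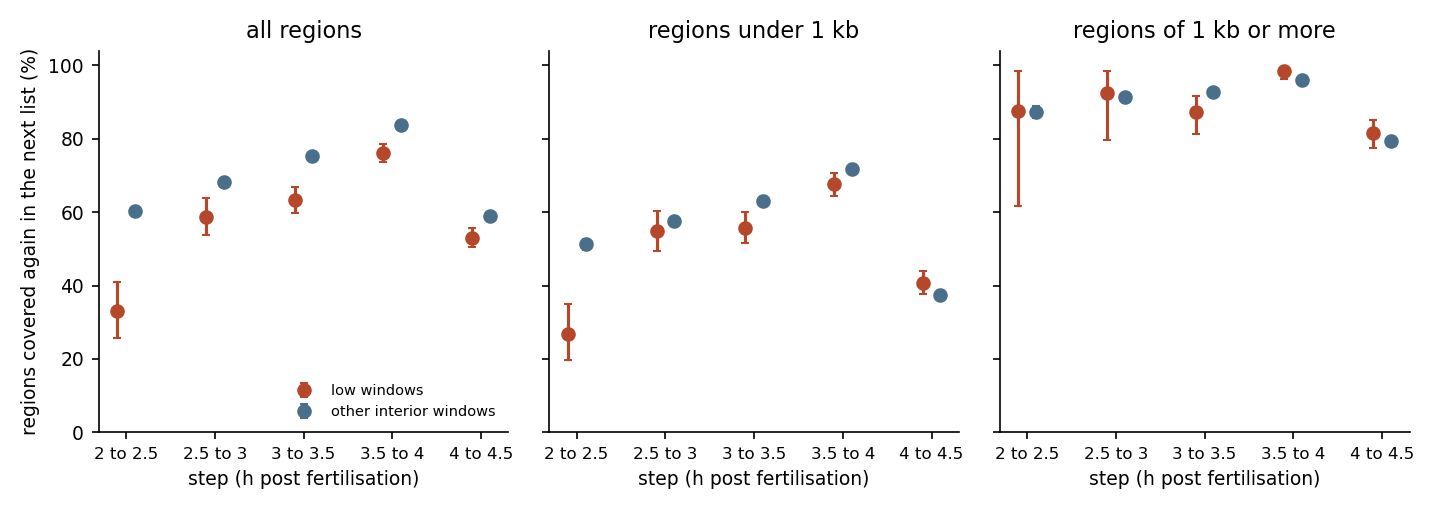
Percent of regions with at least 1 bp covered in the next list (vertical axis) for each step (horizontal axis), in the low windows and the other interior windows, for all regions, regions under 1 kb and regions of at least 1 kb, each set against all regions of the next list. Bars are exact 95% binomial intervals, which cover counting error only. All regions gave lower shares in the low windows, such as 33.1% against 60.3% in the first, and regions of at least 1 kb gave 87.5% against 87.4% there.

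New length in the low windows lay mainly apart from earlier regions until 4 hpf. Over the 5 steps the gain was 226, 483, 707, 631 and 507 kb. The part of it in regions that overlap an earlier one was 9.16, 27.2, 32.6, 39.8 and 61.7% in the low windows and 28.3, 46.0, 50, 56.5 and 72.9% in the others. It was larger at each later step in both sets, and smaller in the low windows at all 5, of which the last 2 use the list that chose the windows. Of the length covered at the start of a step, the low windows lost 61.1, 40.8, 37.2, 21.8 and 37.3%, and the other windows 36.9, 27.1, 21.4, 13.3 and 27.7%. The last step on the 19 chromosomes gave an overlapping part of 59.4% in the low windows and 68.2% in the others, and a loss of 37.0% and 26.3%.

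Growth is given by the ratio of the mean covered share to that of the list before. In the low windows it was 2.71, 2.43 and 1.73 for the 3 steps up to 3.5 hpf, and in the others 3.48, 2.00 and 1.59. This ratio was thus smaller in the low windows in the first step and larger in the next pair. The steps into and out of 4 hpf use the values that chose the windows and are a description. Their ratios were 1.35 and 0.966 in the low windows and 1.25 and 0.968 in the others. In percentage points the median change was smaller in the low windows in each of the 3 steps up to 3.5 hpf. It was 0.116, 0.292 and 0.378, against 0.741, 1.19 and 1.54 in the others.

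Coverage was higher at 2.5 than at 2 hpf in 100 of the 124 low windows, against 96.6% of all interior windows. It was higher in 117 low windows at 3 hpf, 117 at 3.5 hpf and 118 at 4 hpf than in the list before, where 98.9, 98.4 and 98.1% of all interior windows were higher. In the step to 4.5 hpf 50 low windows were higher and 74 lower, and 36.2% of all interior windows were higher. A choice by low values at 4 hpf by itself favours higher values in a neighbouring list. On the 19 chromosomes 37 of 103 low windows (35.9%) were higher, against 196 of 844 other windows (23.2%). The mean share there was 0.940 times that at 4 hpf in the low windows and 0.922 times in the others. On chromosomes 1 and 10 to 13, 13 of 18 low windows were higher, with a ratio of 1.22. Of the other windows there, 191 of 222 were higher, with a ratio of 1.25. The 3 low windows at 0 in the 4.5 hpf list all lay on chromosome 14, starting at 22000001, 32000001 and 33000001, and had 1.35, 0.463 and 1.13% at 4 hpf.

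The largest gains in the last step were on chromosomes that stand apart, with 1 exception. Chromosome 13, 17000001 to 18000000, had 2.40% at 4.5 hpf against 1.58% in the list before. Chromosome 10, 28000001 to 29000000, had 2.21% against 1.42%. The exception was chromosome 20, 43000001 to 44000000, with 2.17% against 1.44%. In the first 3 lists it had 0.179, 0.0467 and 0.258%, so its coverage was not built up evenly. Chromosome 12, 25000001 to 26000000, had 2.02% against 1.31%, and chromosome 11, 31000001 to 32000000, had 2.32% against 1.61%.

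Merging all 6 lists gave 2185 marked places in the low windows, 17.6 per Mb, against 46.6 per Mb in the other interior windows. These covered 1.98% of the low windows and 9.19% of the others on average. The merge includes the 4 hpf list, which chose the windows. Differences in places are therefore partly set by the choice and are a description. In the low windows 962 places (44.0%) were found in a single list and 36 (1.65%, exact 95% binomial interval 1.16% to 2.27%) in all 6. The interval covers counting error only, and neighbouring places are not independent. In the other windows the shares were 35.8% and 5.26%. On the 19 chromosomes the shares in a single list were 44.0% in the low windows and 35.4% in the others, and those in all 6 were 1.42% and 5.32%. Regions were also narrower in the low windows, and the part of width in this contrast was not tested. With regions of at least 1 kb alone, 1.14% of places in the low windows and 3.59% in the others were in all 6 lists.

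**Figure D5:**
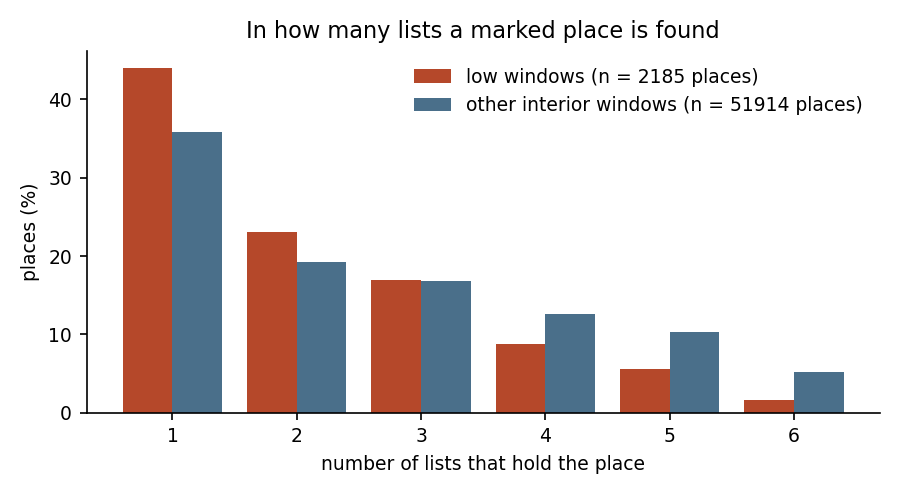
Percent of marked places (vertical axis) by the number of lists that hold them, 1 to 6 (horizontal axis), in the low windows and the other interior windows. Places in a single list were 44.0% of 2185 in the low windows and 35.8% of 51914 in the others, and places in all 6 lists were 1.65% and 5.26%.

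More of the places in the low windows were first seen late. By list of first appearance, in order of time, the shares were 6.91, 13.6, 21.1, 27.7, 22.5 and 8.19% in the low windows and 10, 18.9, 21.9, 24.0, 18.4 and 6.72% in the others. The low windows had the smaller share in the first 3 lists and the larger in the last 3, also on the 19 chromosomes. Of the 151 places first seen at 2 hpf in the low windows, 67 (44.4%) were in that list alone and 36 (23.8%) in every later one, against 14.7% and 52.5% in the other windows. Counted on the 19 chromosomes, 20.6% in the low windows and 53.3% in the others were in every later list. Early places also differed in width. Those first seen at 2 hpf had a median of 880 bp in the low windows and 3425 bp in the others. For those first seen at 2.5 hpf it was 1116 bp and 1871 bp. The part of width in the dating and in these shares was not tested. For places first seen at 3.5 hpf the sets were closer, with 37.4% in the low windows and 39.7% in the others found in both later lists (37.6% and 40.7% on the 19 chromosomes). Places first seen at 4 hpf went the other way, with 36.4% in the low windows and 32.0% in the others found again at 4.5 hpf (37.0% and 32.5% on the 19 chromosomes). Shares that involve the 4 hpf list, which chose the windows, are a description.

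The 36 places found in all 6 lists lay in 31 of the 124 low windows. In order of time their median covered length was 776, 1126, 1668, 2672, 3394 and 2826 bp, and that of the 2729 such places in the other windows 883, 2002, 3342, 4582, 5179 and 5320 bp. On the 19 chromosomes the 4.5 hpf medians were 2826 bp in the low windows and 5038 bp in the others. The 2 sets were closest in the first list. The longest in the low windows at 4 hpf was the place on chromosome 13, 33345174 to 33356317, covered over 874, 1506, 4948, 7800, 8963 and 11144 bp. On chromosome 4, 11414249 to 11423290 had 3340, 5924, 7322, 7414, 8714 and 9042 bp, and so had more of its length earlier. Chromosome 20, 27408321 to 27415053, had 783, 1931, 4885, 6038, 6449 and 6655 bp. Chromosome 17, 21870656 to 21878359, followed with 6301 bp at 4 hpf. Chromosome 10, 28421832 to 28428315, had 982, 623, 4690, 5671, 6207 and 6404 bp. In 4 of these 5 places the covered length was larger in each later list, and on chromosome 10 it was smaller at 2.5 than at 2 hpf. These places were selected for being present throughout, and their lengths are a description.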

How the data were processed

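Per the labels, the series has 57 CUT&RUN libraries. The time course has 17 with an H3K9me3 antibody and 10 with IgG, and the confirmation set has 27 and 3. The 6 deposited region lists were used; the confirmation and IgG libraries were not. HOMER, bedtools, Picard, SAMtools, STAR and Trim Galore stand in the submitters' processing notes, with no version or role. By their values, the files deposited by the authors hold region positions, a score of at most 1000, a signal of unstated unit, a p-value and a q-value. What the deposited p-value tests and how replicates were combined is not stated. Read depth is unknown, so the precision of a region is too.

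Touching regions of a list were merged for covered length. Chromosome length was the furthest region end in any list. Persistence needed 1 bp of overlap. Functions were tested on simulated data. Python 3.11.15, numpy 2.4.6, pandas 2.3.3, scipy 1.17.1 and matplotlib 3.10.9 were used. Members, measures and alternatives were chosen with earlier results of these data known. Windows and regions were named by rank: the 10 least covered windows, 3 on each side of the threshold, 5 of the longest runs with ties in chromosome order, the 5 widest regions at 2, 4 and 4.5 hpf, the 5 longest places in all 6 lists and the 5 largest gains after 4 hpf. The run on chromosome 20 and other positions were named after their values were seen. Alternatives varied the share of windows, grid, outer margin, chromosomes, regions counted, assignment and overlap.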

Additional observations from a re-analysis of the deposited data

How the results depend on the processing

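Of 223 values of 27 results under 11 alternative settings, 176 stayed within 1.5 times (ratios) or within the exact 95% binomial interval (shares), 46 moved and 1 reversed. The setting of windows over 10 Mb from an end was chosen after the data were seen. Ratios of covered share and of region number stayed below 1 in every setting run. Median width at 2 hpf reversed with regions named primary, at 1.17 from 17 regions. Shares of low windows in the lowest set moved with the lowest 5% of windows, to 21.0, 43.5, 51.6 and 46.8% for the 2, 2.5, 3 and 4.5 hpf lists. With the lowest 20% they moved to 51.8, 75.7 and 81.0% for the 2, 3 and 4.5 hpf lists. By construction these sets hold 5% and 20% of all interior windows, against 10% as reported. Shares at different cuts are therefore not directly comparable. In the 2 hpf list 83 interior windows were at 0, more than the 62 windows of the lowest 5%. Ties were broken by chromosome number and position, so the 21.0% depends on that order and does not measure shared low coverage. In the 4.5 hpf list 31 interior windows were at 0, all on chromosomes that stand apart. They fill 31 of the 62 places, which limits what the 46.8% can reach. With the lowest 20%, 71.3% lay in runs, 67.2% of regions persisted from 3 to 3.5 hpf and 2.40% of places were in every list. With the grid shifted by 500 kb, persistence from 2 to 2.5 hpf was 47.3% in the low windows and 59.5% in the others.

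With regions of at least 1 kb, the covered ratios were 0.0838, 0.0554 and 0.101 at 2, 2.5 and 3 hpf and the number ratios 0.0966, 0.0694, 0.150 and 0.171 from 2 to 3.5 hpf. Persistence was 62.5%, 77.5%, 70.9%, 85.2% and 74.5% over the 5 steps, and 1.14% of places were in every list. With regions named primary, the covered ratios were 0.0777, 0.0686 and 0.0929 and the number ratios 0.0788, 0.0898, 0.128 and 0.175 at the same times. Persistence was 58.8%, 83.3%, 86.2% and 25.4% in the steps from 2, 2.5, 3.5 and 4 hpf, and 0 of the places were in every list. With the best scored 50%, the covered ratio at 2 hpf was 0.0962 and the number ratio 0.109, persistence was 62.2%, 77.1%, 71.3% and 85.0% in the first 4 steps, and 0.605% of places were in every list. In each case the cause was not tested, though filtered lists hold fewer regions by construction. With overlap over at least 50% of a region, persistence was 51.5%, 56.8% and 73.5% in the steps from 2.5, 3 and 3.5 hpf. Persistence and the share of places in every list were lower in the low windows than in the others in 49 of 58 values. These were 9 of 10 for the step from 2 to 2.5 hpf, 8 of 10 for each later step and 8 of 8 for places. The settings reuse the same regions, so the values are not independent and their count is a description. The steps into and out of 4 hpf and the places use the list that chose the windows. Leaving out replicates was not possible because each list is pooled. Unknown read depth limits all comparisons between times. No paired analysis was possible because the lists hold no value per replicate.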

Other observations

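Some windows were in the lowest 10% early but not at 4 hpf. Of the lowest 10% of interior windows at 2.5 hpf, 51 were outside the low windows. They averaged 0.127% in that list and 2.50% at 4 hpf. As a group they were thus still below the 4 hpf mean of all interior windows outside the low set, 6.55%. The highest of them at 4 hpf, chromosome 25, 13000001 to 14000000, had 0.100, 0.111, 1.33, 3.41, 5.63 and 5.38% in order of time. Chromosome 1, 44000001 to 45000000, had 0, 0.0597, 1.2, 4.46, 5.51 and 6.06%, and lies on a chromosome that stands apart in the last list. Chromosome 5, 45000001 to 46000000, had 0.0350, 0.0447, 0.511, 2.12, 4.54 and 4.27%. These 3 were chosen after their values were seen, and no test was made. Outside the low windows, 36 windows were in the lowest 10% at 4.5 hpf, and 29 of them were on chromosomes 1 and 10 to 14. Of all 1113 windows outside the low set, 844 were on the 19 other chromosomes. Of the 36, 28 had no covered base in the 4.5 hpf list.

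Uncovered stretches were longer in the low windows than in the others in every list. The longest stretch without a region inside a window had a median of 825, 569, 409, 311, 275 and 318 kb in the low windows in order of time, and of 494, 299.8, 211, 171, 148 and 179 kb in the others. On the 19 chromosomes outside 1 and 10 to 14 the 4.5 hpf medians were also 318 kb and 179 kb. With all 6 lists merged it was 219 kb in the low windows and 116 kb in the others. The 4 hpf list chose the windows, so its values and the merged ones, which include it, are a description. The part of assembly gaps or unmappable sequence in these stretches was not tested.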
